A study of Caenorhabditis elegans with 2 samples.

Results

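The tRNA genes on the X chromosome of Caenorhabditis elegans are the subject here: all 276 genes of biotype tRNA that Ensembl release 115 places on X in the assembly WBcel235 (ce11), out of 46890 annotated nuclear genes. They were chosen by annotation alone, and the other 336 nuclear tRNA genes, on the autosomes, serve as the set most like them. The protein measured was SNPC-3.4, the product of T02C12.2, which is related to a subunit of SNAPc, the complex that activates small nuclear RNA genes. Chromatin immunoprecipitation and sequencing (ChIP-seq) was done on 2 biological replicates of a single group, with no second genotype, treatment or stage. Both replicates were whole young adult hermaphrodites of strain YL497, a line that stably expresses T02C12.2 as a transgene with a C-terminal GFP-FLAG tag, and in both the chromatin was sonicated and precipitated with an antibody to GFP, per the sample descriptions (the labels' antibody field gives snpc-3.4 instead). Their exact age is given as unknown. The promoter that drives the transgene and the state of the untagged gene are not given in the labels, and whole worms mix all tissues, so a peak cannot be assigned to a cell type. The labels give the replicates as separate biosamples.

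Nuclear tRNA genes are transcribed by RNA polymerase III. Their promoter lies inside the transcribed sequence, in an A box and a B box that are bound by TFIIIC, which places TFIIIB just upstream of the start, and transcription stops at a run of T soon after the gene. SNAPc is known instead for promoters with an upstream sequence element, at snRNA genes of both RNA polymerase II and RNA polymerase III.

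The deposited files are peak lists with no read counts, so the depth of each library is unknown, and the control that the notes refer to was not analysed here. Each list gives 30000 candidate regions with a summit and a signal. There is a list per replicate and a pooled one, and the authors' thresholded list keeps 2101 of the pooled regions, 2075 of them nuclear. Signal is the value that the authors' peak caller gave a region. It has no stated scale and is compared only within a list, and replicate 2's list runs on a higher scale. A gene is called bound below when a thresholded summit lies within 250 bp of its annotated 5' end. Intervals on shares are 95% Wilson intervals that cover counting error over genes only. No test was made over genes, because copies of a tRNA share sequence and neighbours share peaks.

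The question was which X tRNA genes carried a peak and what separated them from those that did not, since many are exact copies. The sequences that follow show this for the X tRNA gene of highest signal and for 3 pairs of identical genes of which 1 copy was bound and the other was not. The pairs were chosen after the values were seen, from copies with no other tRNA gene within 1000 bp. Each run is RefSeq sequence of WBcel235, written 5′ to 3′ on the gene's strand, with 60 bases before the gene, the gene, and 12 bases after it. Capitals mark, in order, TCTCT before the gene where present, the anticodon, the match to the B box, and the first run of 4 or more T after the gene. The B box is marked by the form GTTCNANNC, tried after the data were seen. The proline and aspartate genes shown match this form and not the stricter GTTCGANNC.
R04D3.t2, valine, bound, chrX:13306974-13307118, plus strand: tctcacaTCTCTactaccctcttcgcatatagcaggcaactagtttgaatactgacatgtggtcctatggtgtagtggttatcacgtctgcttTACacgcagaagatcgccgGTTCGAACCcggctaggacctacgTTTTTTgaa
H06A10.t1, proline, bound, chrX:13511958-13512101, minus strand: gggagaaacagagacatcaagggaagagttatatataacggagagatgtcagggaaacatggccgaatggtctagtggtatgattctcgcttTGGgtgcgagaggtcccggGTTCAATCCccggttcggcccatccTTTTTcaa
ZK678.t3, proline, not bound, chrX:15751360-15751503, plus strand: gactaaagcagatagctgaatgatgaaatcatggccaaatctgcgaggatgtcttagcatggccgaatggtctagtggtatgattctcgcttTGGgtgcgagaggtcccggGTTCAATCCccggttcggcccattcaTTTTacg
C03A3.t1, arginine, bound, chrX:11252578-11252722, minus strand: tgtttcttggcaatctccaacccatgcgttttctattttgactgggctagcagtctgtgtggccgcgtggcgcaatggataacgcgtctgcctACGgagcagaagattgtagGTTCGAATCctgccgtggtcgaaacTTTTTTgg
C14F11.t1, arginine, not bound, chrX:6220058-6220202, minus strand: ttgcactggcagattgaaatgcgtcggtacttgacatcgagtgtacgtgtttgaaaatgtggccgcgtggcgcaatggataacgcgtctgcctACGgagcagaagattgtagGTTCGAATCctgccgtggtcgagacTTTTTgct
F38G1.t2, aspartate, bound, chrX:489856-489999, minus strand: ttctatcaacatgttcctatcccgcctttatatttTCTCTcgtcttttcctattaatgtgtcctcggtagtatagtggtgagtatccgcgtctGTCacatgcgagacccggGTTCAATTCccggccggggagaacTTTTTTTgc
F22F1.t1, aspartate, not bound, chrX:8149096-8149239, plus strand: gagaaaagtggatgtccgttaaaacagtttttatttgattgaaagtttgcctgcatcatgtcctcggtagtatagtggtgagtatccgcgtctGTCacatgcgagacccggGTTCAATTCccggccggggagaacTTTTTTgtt
Within each pair the gene is the same over its 72 bases (73 for arginine), including the whole internal promoter, while the 60 bases before it matched at 43.3% of positions for proline, 28.3% for arginine and 33.3% for aspartate.

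In each pair the bound copy had a candidate in both replicates and the unbound copy in replicate 2 only. H06A10.t1 had a signal of 12 in replicate 1, 72.7 in replicate 2 and 96.6 in the pool, whereas its copy ZK678.t3 had no candidate in replicate 1, 25.1 in replicate 2 and 36.2 in the pool. C03A3.t1 had 40.5, 66.6 and 108, and its copy C14F11.t1 had none, 38.9 and 37.6. F38G1.t2 had 30.4, 54.8 and 95.3, and its copy F22F1.t1 had none, 22.3 and 29.7. In all 3 pairs the unbound copy was thus absent from the list of replicate 1 and lower than its bound copy in replicate 2. The pairs were picked as the highest bound and the lowest unbound copy, so the size of these gaps is a description. The share of 31-base words that occur once in the genome, counted from 250 bp before to 250 bp after the 5' end, was 87.7%, 87.9% and 87.7% around the bound copies and 79.4%, 89.0% and 75.4% around the unbound ones. The part that mapping to repeated sequence plays in these values was not tested.

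Of the 276 X tRNA genes, 169 were bound, a share of 61.2% (55.4 to 66.8%), where 4.03% of all nuclear genes and 4.88% of all genes on X had a thresholded summit within the same distance. On the autosomes 187 of 336 tRNA genes were bound, 55.7% (50.3 to 60.9%), and the intervals overlap. The 169 genes drew on 153 distinct summits, since 16 summits each served 2 neighbouring genes. Of the 205 thresholded peaks on X, 153 lay at tRNA genes, or 74.6%, against 169 of 1870 on the autosomes, or 9.04%. The X list was therefore mostly a list of tRNA genes: their peaks had a median signal of 78.9, and the other 52 peaks on X had 60.8. At the bound X genes the signal ran from 52.7 to 163 with quartiles of 64.2 and 100, and the median nuclear peak had 71.7. The autosomal tRNA genes had a median of 74.6 and a range of 50.8 to 336, so the strongest tRNA peak was not on X. The best X tRNA peak ranked 157th in the pooled list.

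**Figure D1:**
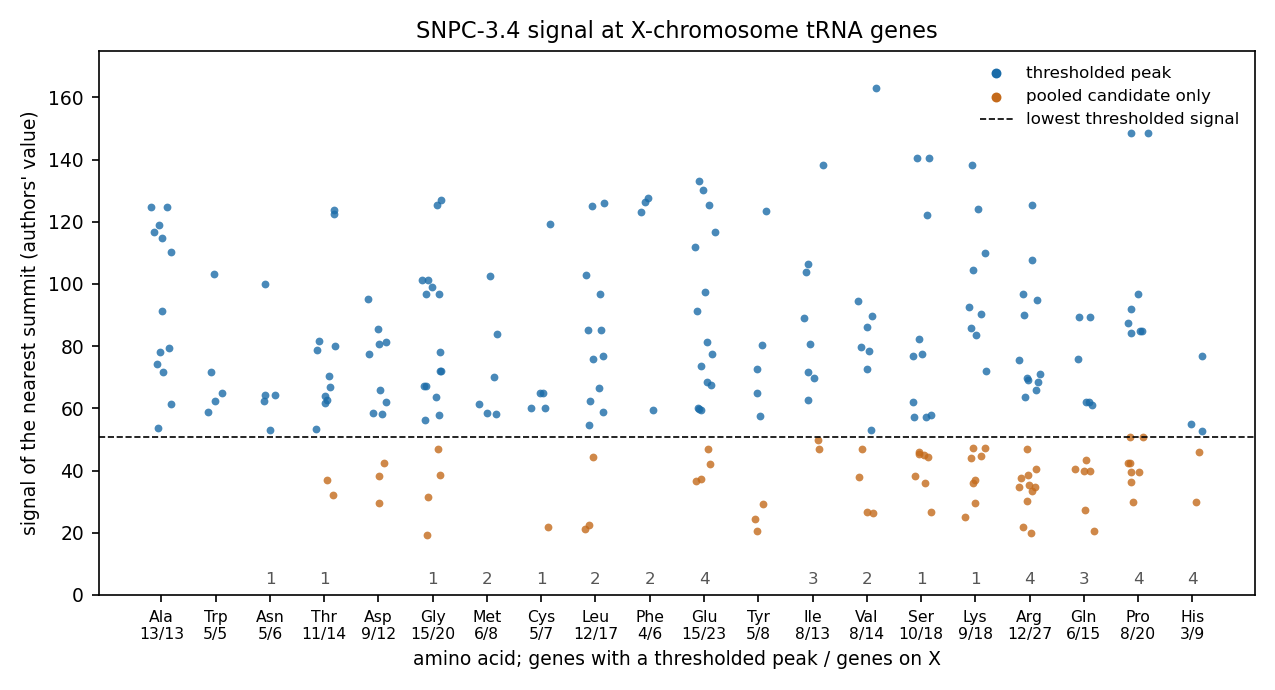
Signal of the nearest summit at each X tRNA gene (y axis, the authors' value) by amino acid (x axis, with bound genes over all genes); blue points have a thresholded peak, orange points only a pooled candidate, grey numbers count genes with no pooled candidate, and the dashed line is the lowest thresholded nuclear signal, 50.8. All 13 alanine genes lie above the line, while histidine has 3 of 9 there.

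Below the threshold the candidate lists went on at many of the remaining genes. A pooled candidate was present at 239 of the 276 genes, or 86.6%, where 21.1% of all nuclear genes had one, and at 280 of 336 autosomal tRNA genes, or 83.3%. Of the 107 unbound X genes, 70 had such a candidate, with signals of 19.3 to 50.7 and a median of 37.5, and 37 had none. Only 20 X tRNA genes had no summit within 250 bp in any list. The highest unbound value, 50.7, belonged to a summit shared by the proline genes C48C5.t1 and C48C5.t3, which had 21.3 in replicate 1 and 29.5 in replicate 2. Next came the isoleucine gene B0344.t1 with 49.7 in the pool, 23.2 in replicate 1 and 24.8 in replicate 2. Just inside the threshold were the valine gene F39B1.t1 with 53.2, the asparagine gene T04F8.t1 with 52.9 and the histidine gene F28H6.t2 with 52.7. In replicate 1 F39B1.t1 had 9.89, below both unbound examples, so genes on either side of the threshold overlapped within a single replicate.

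The 6 strongest X tRNA genes with separate summits carried 6 different amino acids. R04D3.t2, the valine gene printed above, had 163 in the pool, 80.7 in replicate 1 and 78.1 in replicate 2. It lies between protein-coding genes, at 13307034 to 13307106 on the plus strand, and its summit was 38 bp inside the gene. The proline gene F46G11.t1, at 5801472 to 5801543, had 149 in the pool, 47.2 in replicate 1 and 87.9 in replicate 2, from a summit 150 bp before its 5' end. That summit was 40 bp before the divergent proline gene F46G11.t2, and its region overlaps F46G11.t2 and not F46G11.t1. C53C7.t1, a serine gene at 13046578 to 13046659, had 140 in the pool, 50.9 and 98.8, and shared its summit with a divergent serine gene, C53C7.t2. There the region overlaps both genes, so the peak cannot be given to either alone. The lysine gene C33G3.t2, at 14063946 to 14064018, had 138 in the pool, 49.4 in replicate 1 and 92.6 in replicate 2, with no tRNA gene within 48074 bp. C02D4.t1, an isoleucine gene at 15297471 to 15297544 in an intron of the tyramine receptor gene ser-2, also had 138 in the pool, with 58.4 and 81.7. The glutamate gene K08B5.t2, at 16558942 to 16559013 in an intron of K08B5.1, had 133 in the pool, 29.8 in replicate 1 and 99.6 in replicate 2. R04D3.t2 was the highest X tRNA gene in replicate 1 and K08B5.t2 the highest in replicate 2, so the replicates put different genes first.

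Taken by replicate, fewer X genes were reached in replicate 1. Among the 2101 regions of highest signal in each replicate's own list, those of replicate 1 lay within 250 bp of 142 X tRNA genes (51.4%, where 3.52% of all nuclear genes had one) and those of replicate 2 of 172 (62.3%, against 4.02%). Counted more strictly, by whether the candidate nearest to the gene was itself a top region, there were 140 and 171 genes. By that rule, which is used for single replicates from here on, both lists reached 119 genes, and 118 of these were bound. The 1 exception was the arginine gene T06H11.t3, which had 32.7 in replicate 1 and 33.8 in replicate 2 but whose nearest pooled candidate had 19.9. Its replicate 1 summit lies 216 bp past its 5' end and is also the one nearest to its bound neighbour T06H11.t2. In the other direction, T04F8.t1 was bound with a region in neither top list, at 19.7 and 31.9. These 2 genes were named after their values were seen.

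At the 165 bound genes with a candidate in both replicates, signal ran from 9.89 to 80.7 with a median of 30 in replicate 1, and from 16.9 to 99.6 with a median of 50.1 in replicate 2. The median log2 ratio of replicate 2 to replicate 1 was 0.84 with an SD of 0.57 over genes. Since the lists differ in scale, that ratio gives no direction, and by rank within each list the medians were 1004 and 880. Genes are not replicates, and these were picked by their pooled value. Across them Pearson's r of the log2 values was 0.36 and Spearman's rho 0.41. Over all 221 X tRNA genes with both values they were 0.61 and 0.60. The larger set adds the 56 unbound genes, which lie mostly lower in both lists.

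**Figure D2:**
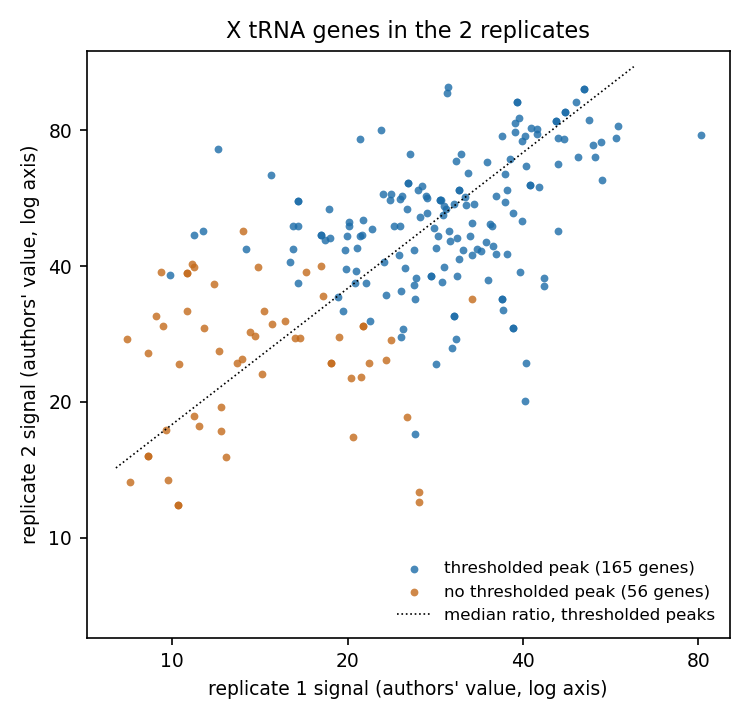
Signal of each X tRNA gene in replicate 1 (x axis) and replicate 2 (y axis), both the authors' values on log axes; blue points are bound genes, orange points are not, and the dotted line marks the median ratio of the 165 bound genes, 0.84 on the log2 scale. The lists differ in scale, so distance from that line, not from equality, shows where the replicates differ.

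A few genes departed from the usual ratio, and their ranks within each list show it without the difference in scale. The proline gene H06A10.t1 ranked 12174th in replicate 1 and 375th in replicate 2, the threonine gene F55G7.t1 6598th and 521st, and the tryptophan gene D1073.t1 16004th and 1014th. These stood highest in replicate 2 relative to replicate 1. On the other side were the serine gene T06H11.t1, in an intron of the potassium channel family gene unc-58, with ranks of 505 and 6532, and the cysteine gene R04E5.t5, with 498 and 3934. The asparagine gene ZK154.t5, in an intron of the ion channel gene deg-1, had ranks of 1380 and 10693. These ranks belong to different summits, 72 bp and 4 bp inside the gene. Its thresholded summit lies 197 bp past its 5' end and is shared with ZK154.t2, whose nearest replicate 2 summit ranked 1960th. The pooled candidate nearest to ZK154.t5 had 35.8. Another 4 bound genes, named after their values were seen, had no replicate 1 candidate within 250 bp. They were F41D9.t1 for arginine with 55.7 in replicate 2, R04E5.t2 for glycine with 46.6, F31B12.t1 for glutamate with 62.2 and W03G11.t1 for lysine with 84.6. R04E5.t2 shares its thresholded summit with R04E5.t3, for which replicate 1 had a candidate of 21. No bound X gene lacked a candidate in replicate 2.

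The summits lay mostly over the gene or shortly before it. At the 169 bound genes the median summit was 19 bp inside the gene, with quartiles at 17 bp before the 5' end and 55 bp after it, and it was 23 bp inside in replicate 1 and 14 bp in replicate 2. A summit beside close neighbours can be counted for either, so the 107 bound genes with no other tRNA gene within 1000 bp were also taken alone. There the median was 26 bp inside, and 29 bp and 23 bp in the 2 replicates. Of these 107 summits, 70 lay in the first 75 bp of the gene, where the A and B boxes are, 27 lay in the 50 bp before it, 1 lay farther upstream and 9 lay beyond. A summit between the start and the end of the gene was found at 93 of the 169 bound X genes, or 55.0%, and at 80 of 187 bound autosomal tRNA genes, or 42.8%. The autosomal median was 12 bp inside the gene. The difference between X and the autosomes was not tested. The median share of unique words inside bound X genes was 0%, and the part that mapping to repeated sequence plays in summit positions was not tested either.

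**Figure D3:**
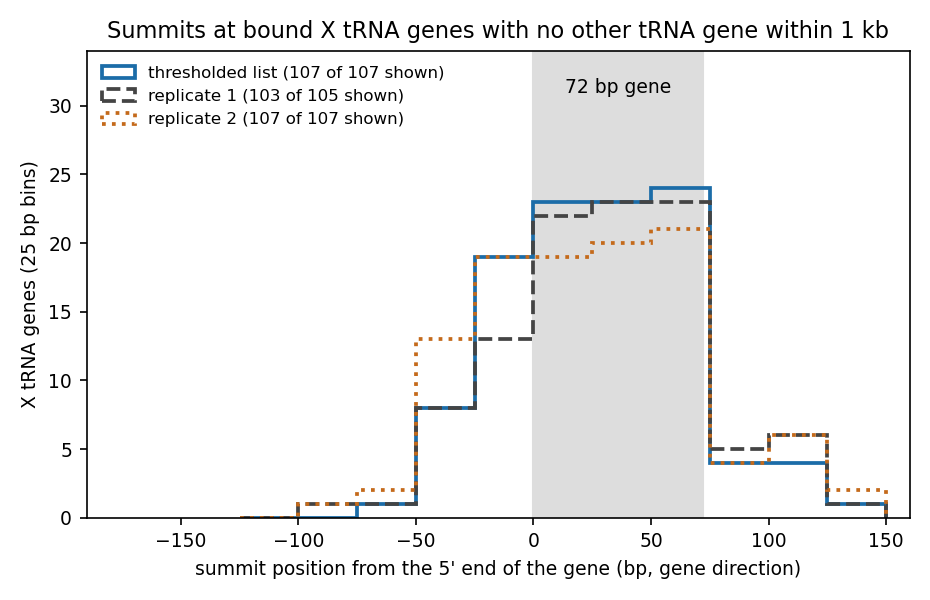
Summit positions (x axis, bp from the 5' end in the direction of the gene) at bound X tRNA genes with no other tRNA gene within 1000 bp, counted in 25 bp bins (y axis), for the thresholded list and each replicate; the grey band spans a gene of 72 bp. In the thresholded list 70 of 107 summits fall at 0 to 74 bp.

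By amino acid, the bound share ran from all to a minority. All 13 alanine genes were bound, at signals of 53.8 to 125, and so were all 5 tryptophan genes, at 58.9 to 103. Asparagine had 5 of 6, threonine 11 of 14, glycine 15 of 20, aspartate 9 of 12 and methionine 6 of 8. At the other end were histidine with 3 of 9, glutamine with 6 of 15, proline with 8 of 20, arginine with 12 of 27 and lysine with 9 of 18. Of the 9 histidine genes, 6 form the F28H6 array, which had 1 bound gene and a median of 19.2% unique words. Outside it ZC449.t1 and C06G1.t1 were bound and C49F5.t1 was not. The part of repeated sequence in the histidine share was not tested. The groups are small, and on the autosomes some amino acids had like shares and others did not. Threonine had 16 of 20 bound there, alanine 15 of 21, glutamine 5 of 12, histidine 5 of 11 and proline 11 of 22, while tryptophan had 3 of 7, asparagine 2 of 14 and lysine 19 of 28. Share and signal were not ordered alike throughout. The median over bound genes was 91.2 for alanine, 55 for histidine and 68.9 for glutamine, so there the share and the signal were high or low together. It was 64.2 for asparagine and 64.9 for tryptophan, but 125 for phenylalanine, of which 4 of 6 genes were bound, and 89.8 for proline.

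The alanine genes had a candidate in each replicate. C11E4.t1, in an intron of C11E4.8, had 40.3 in replicate 1, 77.6 in replicate 2 and 119 in the pool, and T08A9.t1 had 49.8, 69.8 and 117. The lowest was K02A4.t2, the single X gene for Ala(CGC), with 19.9, 39.4 and 53.8. F15G9.t2, in an intron of the hemicentin gene him-4, had 39.1, 92.5 and 125, with a summit shared with the alanine gene F15G9.t1. The 3 strongest phenylalanine genes lay close together, with T28B4.t1 at 128, F32A6.t1 at 126 and K05G3.t1 at 123, whereas K08B5.t1 had 59.5. The 2 unbound phenylalanine genes, T25D1.t2 and T27B1.t1, had no candidate in any list, and only 29.9% and 54.8% of the words around them were unique.

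By anticodon, the strongest gene of each larger group mostly stood well above the lowest thresholded nuclear signal, 50.8, in the pool. These genes were picked as the highest of their group, and the replicate lists have no such threshold. Among genes for the small and hydrophobic amino acids, the glycine gene K09C8.t1 had 127 in the pool (46 and 77.0 in replicates 1 and 2), the leucine gene C04E7.t1 had 126 (57.7 and 76.7), and the Val(AAC) gene T01B4.t4 had 94.5 (26.8 and 60.2). The methionine gene C02F12.t1 had 103 (34.7 and 67.9). Among those for charged amino acids, the Glu(TTC) gene F25F6.t1 had 130 (51.9 and 84.3) and the Lys(CTT) gene M163.t2 had 124 (38.8 and 83.1). The lowest of these group leaders was the Arg(TCG) gene F38E9.t2, with 69.9 in the pool, 16.1 in replicate 1 and 48.9 in replicate 2. The histidine gene C06G1.t1 was next, with 76.8, 31.5 and 43.5. For the polar and aromatic amino acids, the Ser(GCT) gene E03E2.t1, in an intron of the monoamine transporter gene cat-1, had 122 (41.3 and 81.1), the threonine gene ZK563.t1 had 124 (42.2 and 78.4), and the tyrosine gene R11.t1 had 124 (29.6 and 96.9). The cysteine gene F42D1.t1 had 119 (45.9 and 67.3), the tryptophan gene K06G5.t1 had 103 (22.8 and 80), the asparagine gene F41D9.t3 had 100 (37.3 and 64.0) and the Gln(TTG) gene H08J11.t5, in an intron of the junction protein gene ajm-1, had 89.3 (25.4 and 61.0). The spread within an anticodon was wide as well: the 12 bound genes for Gly(TCC) ran from 56.2 to 127.

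Copies of 1 sequence were bound unevenly, as the printed pairs show. The 276 genes hold 104 distinct spliced sequences, and 26 of these occur in 4 or more copies on X, 187 genes in all. Of the 187, 122 were bound. Bound and unbound copies occurred together in 22 of the 26 families, and in 4 families (one each for alanine, asparagine, threonine and tryptophan) every X copy was bound. No family of that size was without a peak. The largest, 13 copies for Pro(TGG), had 5 bound at 84.2 to 149 and 8 with a pooled candidate only. The 12 copies for Glu(CTC) had 9 bound at 59.9 to 133, and the 10 copies for Lys(CTT) had 5 bound at 72 to 124. The 4 copies for Ser(GCT) had 1 bound, E03E2.t1 at 122, while E03E2.t2, an identical copy 1347 bp away, had 45.2. Over the families, the median signal of bound copies ranged from 63.6 to 123. The autosomal copies of the same sequences were bound at 118 of 180. Asparagine differed most, with 5 of 5 copies bound on X and 2 of 13 on the autosomes, a contrast named after its values were seen. Among these X copies ZK154.t5 counts as bound through a summit shared with ZK154.t2.

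**Figure D4:**
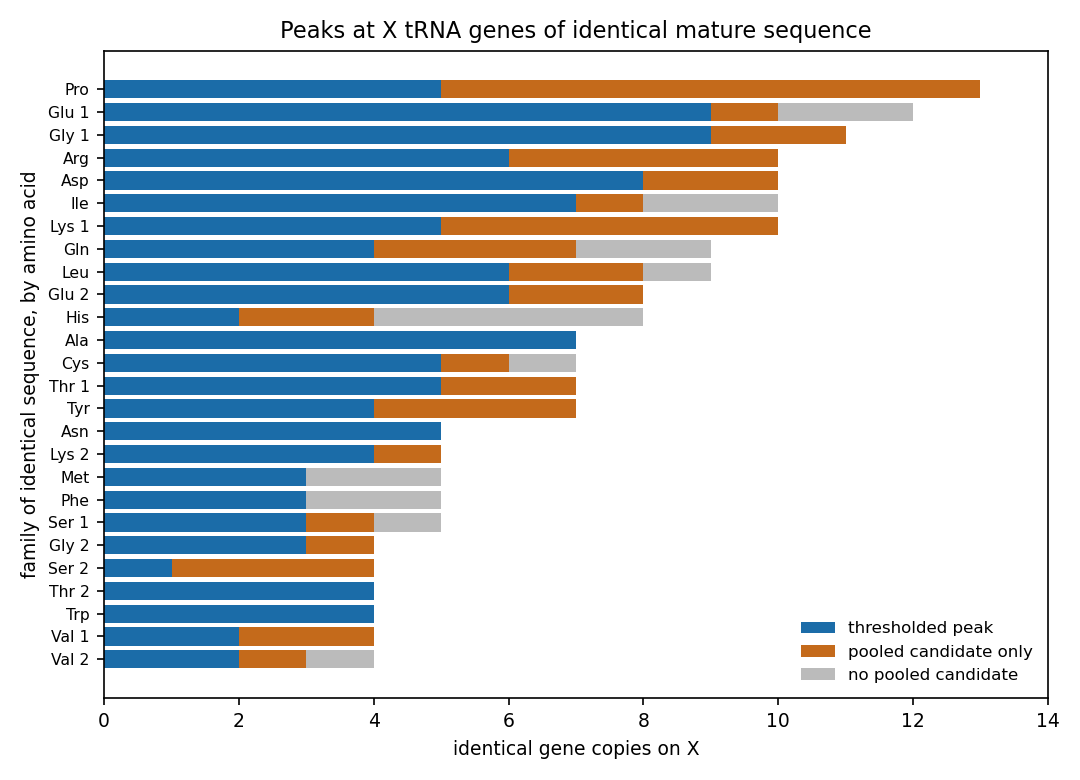
X tRNA genes of identical spliced sequence, for the 26 families with 4 or more copies (y axis, labelled by amino acid and numbered where an amino acid has 2 families), with the number of copies (x axis) that are bound, have a pooled candidate only, or have none. In 22 families the bar is mixed.

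Genes whose spliced sequence is found at no other nuclear tRNA gene were bound less often. Of 53 such X genes 18 were bound, or 34% (22.7 to 47.4%), against 151 of 223 genes with further copies, or 67.7% (61.3 to 73.5%). The single genes overlap those with an irregular anticodon stem. The stem has all 5 pairs at 261 X genes, of which 166 were bound (63.6%, 57.6 to 69.2%), and fewer at 15, of which 3 were bound (20%, 7.05 to 45.2%). Of the 15, 10 are single sequences with 0 bound, and the other 5 are identical methionine genes, of which C02F12.t1, C03F11.t1 and C25F6.t3 were bound at 103, 70 and 83.9. Single sequences with all 5 pairs were bound at 18 of 43 (41.9%, 28.4 to 56.7%), and sequences with further copies and all 5 pairs at 148 of 218 (67.9%, 61.4 to 73.7%). On the autosomes the split by anticodon stem alone gave 181 of 311 with all 5 pairs and 6 of 25 with fewer. With all 7 acceptor pairs 157 of 252 X genes were bound, and with fewer 12 of 24. None of the 4 genes whose anticodon could not be read was bound, namely C28G1.t5, F47E1.t3, K02D3.t1 and ZK678.t5, and their pooled candidates reached 31.5 at most. That value, at C28G1.t5, came from a summit 247 bp before its 5' end, which lies 54 bp inside the glycine gene C28G1.t4. These splits were chosen after the data were seen.

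On X the share of bound genes was much the same with and without a match to the B box. The B box form GTTCGANNC, searched on the gene's strand, is present in 200 X tRNA genes, of which 122 were bound (61.0%), and absent from 76, of which 47 were bound (61.8%). Of the 241 autosomal tRNA genes with that form 135 were bound, and of the 95 without it 52 were. The looser form GTTCNANNC, tried after the data were seen because only 2 of the 20 proline genes match the first form and 18 match this one, is present in 268, of which 164 were bound, and absent from 8, of which 5 were bound. On the autosomes 182 of 319 genes with the looser form were bound (57.1%, 51.6 to 62.4%) and 5 of 17 without it (29.4%, 13.3 to 53.1%). A run of TTTT within 30 bp after the gene followed 273 genes, of which 169 were bound. The 3 genes without one, Y75D11A.t2, C28G1.t5 and F52E10.t2, were not bound. On the autosomes 332 of 336 genes had such a run. Longer first runs of T did not go with a higher share: 39 of 67 genes with a run of 4 were bound, 55 of 80 with 5, 47 of 80 with 6, and 28 of 46 with 7 or more. Of the 12 genes with an intron in the tRNA, 8 were bound.

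Before the gene, 1 short word was more common at bound genes. TCTCT, searched in the 70 bp before the 5' end on the gene's strand, was present at 44 of 169 bound X genes (26%) and at 8 of 107 unbound ones (7.48%), and before 14.5% of 19973 protein-coding genes. Read the other way, 44 of the 52 X genes with the word were bound (84.6%, 72.5 to 92.0%), against 125 of 224 without it (55.8%, 49.3 to 62.2%). Replicate 1's top regions lay at 67.3% of genes with the word and 46.9% of those without, and replicate 2's at 80.8% and 57.6%. At autosomal tRNA genes it stood before 29.9% of bound and 19.5% of unbound genes. On the opposite strand the word was found before 14.8% of bound and 8.41% of unbound X genes, and before 4.63% of protein-coding genes. It was picked out on these same genes after their peaks were known, so these shares describe them and carry no test. Most bound genes lack it on the gene's strand, as H06A10.t1 and C03A3.t1 do, although H06A10.t1 has it on the opposite strand. A search of the 100 bp before the 5' end, on both strands, for the words GCGAGACC, AAAGGCGC, AAACGCGC and GTACGGTA gave 1 match at the 276 X tRNA genes, GCGAGACC on the opposite strand before a bound gene. Before protein-coding genes each of these words was found at 0.0951% to 0.26% of genes per strand. The 50 bp before bound X genes had a median A+T content of 58%, and those before unbound genes 62%.

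Spacing went with the bound share on X. Of the 145 X tRNA genes with no other tRNA gene within 1000 bp, measured between 5' ends, 107 were bound (73.8%, 66.1 to 80.3%), and of the 131 with a close neighbour 62 were (47.3%, 39.0 to 55.8%). Autosomal tRNA genes showed the opposite order, with 118 of 237 (49.8%, 43.5 to 56.1%) and 69 of 99 (69.7%, 60 to 77.9%). Among genes standing alone, X was thus above the autosomes, and among close genes below them; the overall shares of 61.2% and 55.7% combine both. Both orders were seen in each replicate. With the top regions of replicate 1 the shares for lone and close genes were 60% and 40.5% on X and 35.0% and 49.5% on the autosomes, and with those of replicate 2 they were 73.1% and 49.6%, and 51.9% and 59.6%. The 1000 bp limit was chosen after the data were seen, and no test of the difference was made, since neighbours share summits and copies share sequence.

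**Figure D5:**
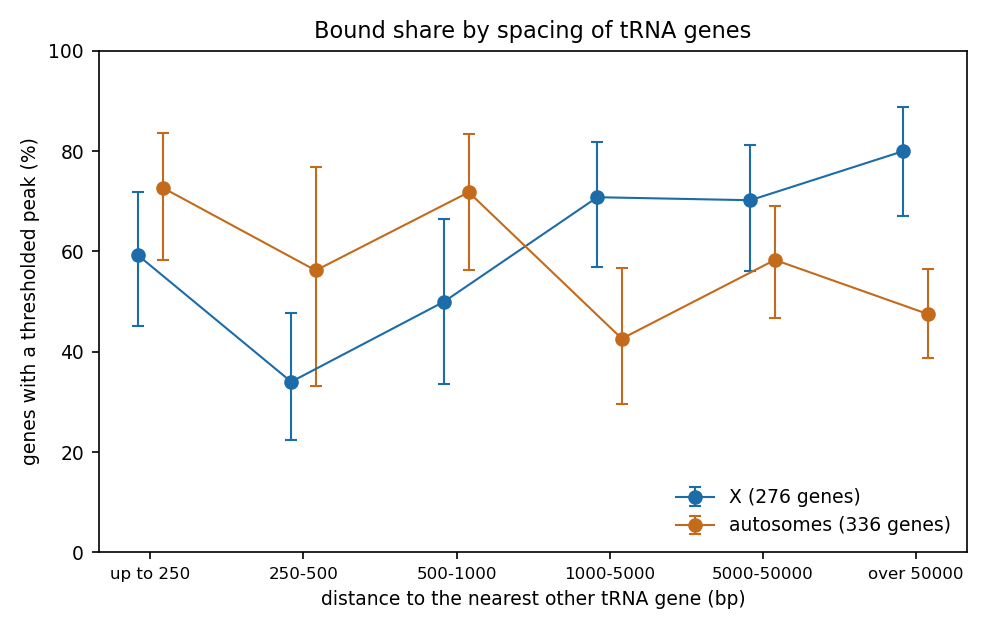
Share of tRNA genes that were bound (y axis, percent, with 95% Wilson intervals over genes) by distance to the nearest other tRNA gene (x axis, bp between 5' ends), for X and the autosomes. On X the share is 34% at 250 to 500 bp and 80% beyond 50000 bp. Genes up to 250 bp apart can more readily be called through a neighbour's summit.

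By distance, the bound share on X was lowest at 250 to 500 bp. It was 59.2% of 49 genes up to 250 bp apart, 34% of 50 genes at 250 to 500 bp, 50% of 32 at 500 to 1000 bp, and 80% of 50 genes beyond 50000 bp. The first limit equals the calling window, so genes up to 250 bp apart can more readily be called through a neighbour's summit. With summits within 500 bp, 59.5% of close and 73.8% of lone X genes were bound. Counted by locus, 36 of the 53 X groups of 2 or more close genes had at least 1 bound gene (67.9%, 54.5 to 78.9%), beside 107 of 145 for lone genes, and on the autosomes 36 of 45 such groups did (80%). Shared summits were mostly at divergent genes. There, 11 of the 25 divergent neighbour pairs had both genes bound and all 11 shared a single summit. Among 39 tandem pairs 10 had both bound, 4 of them through a shared summit, and among 17 convergent pairs 4 had, 1 of them shared. The calling rule favours this order, since divergent 5' ends lie side by side and 1 summit can be within 250 bp of both. The order therefore describes the rule as well as the peaks. Of X genes with at least 85% unique words around them, 132 of 194 were bound (68%, 61.2 to 74.2%), and of those with fewer 37 of 82 (45.1%, 34.8 to 55.9%). On the autosomes these were 147 of 251 (58.6%) and 40 of 85 (47.1%). Split by spacing, with at least 85% unique words the X shares were 102 of 131 for lone genes (77.9%) and 30 of 63 for close ones (47.6%). With fewer unique words the order was the other way, with 5 of 14 lone genes (35.7%, 16.3 to 61.2%) and 32 of 68 close ones (47.1%, 35.7 to 58.8%). The part of repeated sequence in the spacing shares was not tested.

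Single arrays show both outcomes. The 6 histidine genes of F28H6, between 14135045 and 14137010, had 1 bound gene, F28H6.t2, and a median of 19.2% unique words around them. Around F28H6.t2 itself the share was 85.8%. The 4 tyrosine genes of R11, between 16208263 and 16209852, have identical spliced sequences and lie on 1 strand. The first in their direction of transcription, R11.t1, had 29.6 in replicate 1 and 96.9 in replicate 2, and R11.t4 had 16.4 and 36.7. R11.t2 and R11.t3 between them had no candidate in replicate 1 and 19.3 and 23.2 in replicate 2. The share of unique words was 83.9% around R11.t2, 84.7% around R11.t3 and 85.6% around R11.t1, and none of the words inside any of these genes was unique. In the array of F22F1 between 8154445 and 8156707, 5 of 6 genes for 4 amino acids were bound, at 58.1 to 104. Of these, F22F1.t2 is counted through a summit 246 bp past its 5' end that it shares with F22F1.t3. The region of that summit does not overlap F22F1.t2.

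The bound share was much the same inside and outside protein-coding genes. In introns 61 of 95 X tRNA genes were bound (64.2%), between genes 107 of 180 (59.4%), and the 1 gene annotated in an exon, C28G1.t1, was bound at 73.7. On the strand of the host gene 33 of 51 were bound and on the opposite strand 29 of 45. Genes within 500 bp of the 5' end of a protein-coding, snRNA, snoRNA or SL RNA gene were bound at 18 of 26 (69.2%, 50 to 83.5%). Along the chromosome the share was 7 of 17 in the first 2 Mb, 14 of 16 from 2 to 4 Mb, 42 of 71 from 8 to 10 Mb, where tRNA genes are densest, and 17 of 34 from 14 to 16 Mb. The median signal by 2 Mb interval stayed between 71.8 and 101.

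Peaks at the genes that make and process tRNAs were counted as well. Of 16 listed genes for RNA polymerase III, its factors and tRNA maturation, 14 were matched in the annotation, and 3 had a thresholded summit within 500 bp of the 5' end, where 7.04% of 19973 protein-coding genes did. They were rpac-19, a subunit shared by RNA polymerases I and III, with a signal of 72.8, tftc-5, a TFIIIC subunit, with 52.6, and hoe-1, the RNase Z that trims the 3' end of tRNA precursors, with 72.2. The other 11, among them the RNA polymerase III subunit genes rpc-1 and rpc-2, the TFIIIB factor gene brf-1 and the repressor gene mafr-1, had none.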

How the data were processed

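SNPC-3.4 was profiled by ChIP-seq in 2 biological replicates, 1 group in all. Per the file headers and deposited notes, the authors called candidate regions against a control and kept an optimal set by irreproducible discovery rate. The aligner, the peak caller and the treatment of repeated sequence were not given in the sources used here. Per region, the deposited signal has no stated scale, and the summit is the authors' offset from the region start. Lists on ce11 were used, and those on ce10 were left out. Region ends fit the chromosome lengths of WBcel235.

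Genes came from Ensembl release 115, sequences and amino acids (273 of 276 X genes) from RefSeq. Anticodons are not annotated there: they were read from the fold of each spliced sequence and kept where they decode to the annotated amino acid (272 of 276). For each gene the nearest summit within 250 bp of the 5' end was taken, and matching was tested on simulated data. The lists are peaks only, so depth is unknown.

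Named genes are the 6 X genes of highest signal with distinct summits, the highest of each anticodon group with at least 5 genes, the 3 lowest bound and 3 highest unbound genes, and the 3 with the most extreme replicate ratio on either side. The members, lists and rules were chosen with earlier results of these data known. Chosen after these values were seen were the spacing, unique-word, stem and copy-number splits, loci, TCTCT, the looser B box, the anticodon reading and the printed pairs. Alternatives were the 1000 highest regions, single replicates, windows of 100 and 500 bp, region overlap, each summit once, no other 5' end within 500 bp, and at least 50% unique words. Scripts ran in Python 3.11.15 with pandas 2.3.3, NumPy 2.4.6, matplotlib 3.10.9 and SciPy 1.17.1.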

Additional observations from a re-analysis of the deposited data

How the results depend on the processing

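Of 36 recomputed values of the bound counts on X and the autosomes, the median signal and the median summit position, 31 stayed within the limits set (1.5 times for counts, the spread between replicate medians otherwise). For the signal that spread, 14.4, lies between lists on different scales. It therefore includes their difference in scale and is not a measure of replicate error. With the 1000 highest pooled regions 98 X and 96 autosomal tRNA genes were bound, and the median X signal was 96.6; fewer and stronger regions enter by construction. Leaving out a replicate, with any of the other's top regions within 250 bp, gave 142 to 172 bound X genes, 135 to 185 autosomal ones, summits 19.5 to 23.5 bp inside the gene and a median signal of 31.4 to 49.9, on the scale of the remaining replicate's own list. No paired analysis was possible because there is 1 group.

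The shares by spacing were also recomputed, a choice made after the data were seen. Close X genes were bound at 23.7% with the 1000 highest regions, 59.5% with summits within 500 bp and 44.3% by region overlap, and lone X genes at 46.2%, 73.8% and 73.8%. For the autosomes these were 37.4%, 72.7% and 66.7% for close genes and 24.9%, 50.2% and 49.8% for lone ones, so the order held in all 3. With 2 replicates, unknown depth and no control here, neither the error of a single gene's signal nor absence of binding can be given. Copies share their body sequence, so a peak's reads may belong to another copy.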
